A study of Mus musculus with 8 samples.

Results

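The regions described here are the very high scoring entries of a single list of genomic regions that was made for a bisulfite sequencing study of mouse glioma lines. They were chosen by the score that the authors gave each region, a whole number whose calculation is not stated in the sources used here. A region belonged to the set if it lay on chromosomes 1 to 19 and its score was 5000 or more. A zinc finger gene segment of chromosome 4, whose listed regions ran from 145017361 to 147985530, was left out. This gave 519 of 214162 regions in that scope (0.242%), out of 220894 in the whole list. Bisulfite treatment converts unmethylated cytosine and leaves methylated cytosine, so that sequencing reads report methylation, here after capture of DNA with a kit for mouse methylation sequencing. All coordinates are on mouse build mm10, and genes are those of the RefSeq annotation of GRCm38.p6, the assembly that mm10 names.

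The list stood for 8 cell lines from mice on a mixed C57Bl/6, 129 and FVB/n background. There were 4 IDH mutant brain tumour lines from mice whose genotype included N::TVA, Cdkn2a lox/lox and Atrx lox/lox. IDH wild-type tumour lines, described as RAS gliomas, numbered 2 and came from N::TVA; Cdkn2a lox/lox mice. Immortalized astrocyte lines with wild-type IDH numbered 2, came from mice of the same genotype as the mutant tumour lines, carried PDGFA in their names, and 1 of them expressed exogenous wild-type IDH1. All lines thus shared N::TVA and the Cdkn2a allele. Each region had 1 score for the 8 lines together, so which lines contributed to a score is unknown, no value here has a replicate error, and mutant and wild-type lines were not compared.

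Some stretches of a genome exist in many near-identical copies. Ribosomal RNA genes and small nucleolar RNA genes lie in tandem arrays, and families of genes for pheromone binding, zinc finger repressors or sperm proteins have grown by duplication of whole segments. Satellite repeats fill the ends of mouse chromosomes next to the centromere. Reads from copies that a reference assembly lacks, or holds only in part, are placed on the copies it has, and counts there are read with care for that reason. Whether this bore on any score given here was not tested.

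Promoters inside the regions show most directly that some of them lie in sequence with near-identical copies. The 250 bases before the start of a gene are printed here from RefSeq (GRCm38.p6), 5′ to 3′ on the strand of the gene, in lower case. Capitals mark the bases at which the members of a pair differ.
On chromosome 14, LOC115485924 (chr14:7404685-7404934, minus strand) and Gm21103 (chr14:6344271-6344520, minus strand) had promoters that differed at 1 of 250 bases. A region scoring 18652 covered 174 bases of the first, and a region scoring 8057 covered 140 bases of the second.
LOC115485924: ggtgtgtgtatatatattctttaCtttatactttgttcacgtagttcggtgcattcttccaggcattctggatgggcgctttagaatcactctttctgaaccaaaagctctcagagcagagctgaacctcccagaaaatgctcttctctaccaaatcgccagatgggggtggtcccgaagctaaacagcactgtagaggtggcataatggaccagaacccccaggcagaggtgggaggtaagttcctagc
Gm21103: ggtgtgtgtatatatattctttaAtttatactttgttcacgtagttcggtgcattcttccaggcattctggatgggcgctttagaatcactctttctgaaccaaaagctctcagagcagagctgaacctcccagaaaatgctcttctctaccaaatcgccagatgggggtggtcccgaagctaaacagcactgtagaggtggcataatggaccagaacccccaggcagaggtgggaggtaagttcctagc
Gm8108 (chr14:4110102-4110351, plus strand) and Gm38418 (chr14:7658789-7659038, minus strand) belong to the same chromosome 14 cluster. Both promoters lay wholly within very high scoring regions, with scores of 16052 and 7380, and they differed at 12 bases. The first held 11 CpG sites and the second 16.
Gm8108: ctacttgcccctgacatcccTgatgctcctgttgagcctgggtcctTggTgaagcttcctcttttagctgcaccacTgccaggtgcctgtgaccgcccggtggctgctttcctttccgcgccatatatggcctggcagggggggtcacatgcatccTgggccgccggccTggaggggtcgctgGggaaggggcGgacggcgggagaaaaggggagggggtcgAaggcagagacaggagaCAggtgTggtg
Gm38418: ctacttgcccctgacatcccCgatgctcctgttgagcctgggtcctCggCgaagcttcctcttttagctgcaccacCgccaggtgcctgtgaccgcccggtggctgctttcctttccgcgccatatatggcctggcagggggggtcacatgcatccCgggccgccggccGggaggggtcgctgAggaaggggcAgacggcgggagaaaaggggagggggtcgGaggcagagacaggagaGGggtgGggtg
On chromosome 13, the promoters of the non-coding genes Gm40985 (chr13:65415019-65415268, plus strand) and Gm26715 (chr13:66349156-66349405, plus strand) lay within regions scoring 7460 and 5331. They differed at 10 bases.
Gm40985: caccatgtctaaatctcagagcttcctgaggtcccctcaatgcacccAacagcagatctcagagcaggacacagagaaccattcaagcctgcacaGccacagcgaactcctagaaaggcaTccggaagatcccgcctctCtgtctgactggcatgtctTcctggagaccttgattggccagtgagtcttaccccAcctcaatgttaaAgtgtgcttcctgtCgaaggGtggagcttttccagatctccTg
Gm26715: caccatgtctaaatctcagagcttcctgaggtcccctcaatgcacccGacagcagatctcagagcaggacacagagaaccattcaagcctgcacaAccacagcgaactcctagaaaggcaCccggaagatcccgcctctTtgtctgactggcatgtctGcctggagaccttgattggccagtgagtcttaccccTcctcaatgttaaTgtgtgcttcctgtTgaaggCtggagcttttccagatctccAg
On chromosome 2 the zinc finger gene Zfp971 (chr2:178023034-178023283, plus strand) had its promoter in a region scoring 7281. Zfp965 (chr2:175469775-175470024, plus strand) differed from it at 7 bases and lay in no listed region.
Zfp971: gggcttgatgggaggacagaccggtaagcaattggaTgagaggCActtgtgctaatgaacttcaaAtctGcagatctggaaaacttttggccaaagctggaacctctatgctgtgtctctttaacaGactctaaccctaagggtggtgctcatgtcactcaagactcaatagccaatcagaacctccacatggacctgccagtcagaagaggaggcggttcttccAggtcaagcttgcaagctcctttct
Zfp965: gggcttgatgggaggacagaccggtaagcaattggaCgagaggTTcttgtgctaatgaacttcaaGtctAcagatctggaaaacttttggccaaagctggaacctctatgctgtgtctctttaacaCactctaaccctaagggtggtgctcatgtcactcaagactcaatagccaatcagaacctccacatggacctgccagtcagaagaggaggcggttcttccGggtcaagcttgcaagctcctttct
On chromosome 8 the promoters of Gm51595 (chr8:55488223-55488472, plus strand) and Gm51596 (chr8:55491606-55491855, plus strand) were identical. A region scoring 6146 covered 188 bases of the first, and no listed region reached the second.
Gm51595: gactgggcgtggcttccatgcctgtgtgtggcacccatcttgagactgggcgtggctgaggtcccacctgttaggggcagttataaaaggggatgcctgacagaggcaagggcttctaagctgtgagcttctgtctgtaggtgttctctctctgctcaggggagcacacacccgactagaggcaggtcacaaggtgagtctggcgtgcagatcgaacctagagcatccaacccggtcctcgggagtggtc
On chromosome 6 the promoters of Gm40364 (chr6:47679657-47679906, plus strand) and Gm40369 (chr6:47653742-47653991, plus strand) were also identical. The second lies near the 4.5S RNA gene Rn4.5s. A region scoring 5810 reached 56 bases of the first and none of the second.
Gm40364: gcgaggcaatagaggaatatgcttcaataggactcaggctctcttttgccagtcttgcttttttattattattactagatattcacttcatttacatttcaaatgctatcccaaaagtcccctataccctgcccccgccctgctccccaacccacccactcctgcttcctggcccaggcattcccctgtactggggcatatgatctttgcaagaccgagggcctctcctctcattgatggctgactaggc
In the chromosome 14 and 13 pairs both copies met the set. In the chromosome 2, 8 and 6 pairs only the first copy was covered by the list at all.

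Scores in the set ran from 5007 to 245853, with a median of 8027 and quartiles of 6165.5 and 13172.5. These values chose the regions and are given as a description. The other 213643 regions had a median of 462 and quartiles of 236 and 766. Of the 519, 196 scored 10000 or more, 62 scored 20000 or more, 32 scored 30000 or more, 16 scored 40000 or more, 7 scored 50000 or more and 2 scored 100000 or more. The set held 0.780% of the covered bases and 5.04% of the summed score.

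No gap in the scores marks the threshold. Just inside it were a region in the pseudogene Speer8-ps1 (chr5:14947221-14948900) with 5007, a region in a protein-coding gene at chr1:85242841-85244480 with 5010, and another, at chr14:19600891-19601750, with 5012. Just outside were a region at chr17:87011831-87012880 with 4997, chr6:114562601-114563050 with 4996 and chr8:20284041-20286490, in a pseudogene, with 4990. The 4000s held 221 regions.

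The regions were wide. Their median width was 1280 bp (quartiles 880 and 2055 bp) against 460 bp in the other regions (quartiles 260 and 680 bp). At least 2000 bp wide were 138 of them (26.6%), against 0.993% of the others. Of the 98 regions of 4000 bp or more in scope, 30 (30.6%) were in the set, against 6 of 116017 regions under 500 bp. Score and width are linked throughout the list (Spearman rho = 0.80 across the other 213643 regions, which share libraries and depth). The next ratios contain the score that chose the regions and are descriptions. For the 480 regions that had at least 20 other regions within 50 bp of their width, the score was a median of 9.29 times the median of those regions (quartiles 7.16 and 13.6, range 4.33 to 261). Against the other regions within 100000 bp the median ratio was 14.2 (quartiles 8.64 and 22.4).

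**Figure D1:**
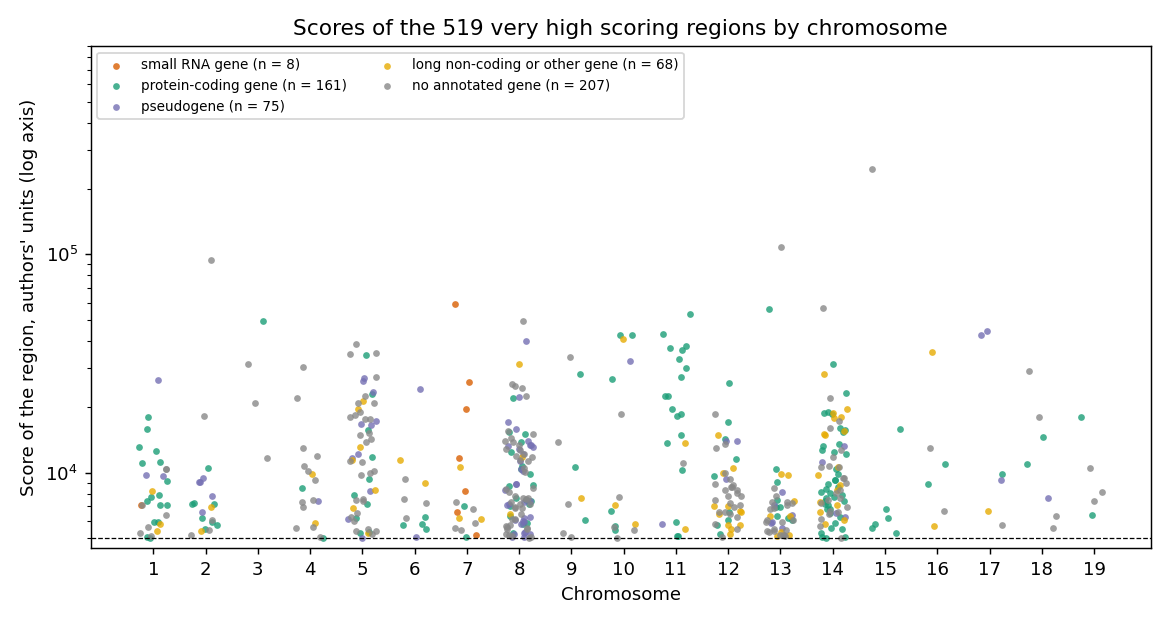
Score of each of the 519 regions (log axis, authors' units) by chromosome, 1 point per region, spread sideways to separate points and coloured by the annotation it overlaps; the dashed line is the threshold of 5000. Chromosomes 8, 14, 5, 12 and 13 hold the dense columns, and the highest point, 245853, is on chromosome 15.

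The set was concentrated on a few chromosomes. Chromosome 8 held 102 regions (0.838% of its listed regions), chromosome 14 held 85 (0.999%), chromosome 5 held 59, chromosome 12 held 49 and chromosome 13 held 45. Chromosome 3 held 4 and chromosome 19 held 5. Regions also lay side by side. Another region of the set was within 100000 bp of 393 of them (75.7%). Joined over gaps of up to 100000 bp, the 519 regions made 194 loci, of which 126 were a single region, 27 a pair and 41 held 3 or more. The 41 larger loci held 339 regions (65.3%), and 9 loci of at least 10 regions held 188. Joined over gaps of up to 1000000 bp, 10 segments held at least 10 regions each. Those segments spanned 18.03 Mb and held 338 regions of the set (65.1%). They also held 223 of the 1068 regions with scores from 2500 to 5000 (20.9%), but 0.698% of the regions under 2500.

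By annotation, 161 regions (31.0%) overlapped a protein-coding gene, 75 (14.5%) a pseudogene, 68 (13.1%) a long non-coding or other gene, 8 (1.54%) a small RNA gene and 207 (39.9%) no annotated gene, each counted in the first class it met in the order ribosomal RNA, small RNA, protein-coding, pseudogene, other. None overlapped a ribosomal RNA gene. Among the other regions the shares were 54.1%, 2.09%, 8.10%, 0.503% and 35.2%, and 4 regions overlapped a ribosomal RNA gene. Pseudogenes thus took a larger share of the set, and protein-coding genes a smaller one. No region of the set had its midpoint in a small RNA gene (0%), and the regions of the set were wider than the others; the part of width in these shares was not tested. These shares have no test, since regions in 1 cluster are not independent. A protein-coding gene end, taken as 1000 bp to each side of a gene's start or end, was met by 73 regions (14.1%) and by 15.3% of the others.

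**Figure D2:**
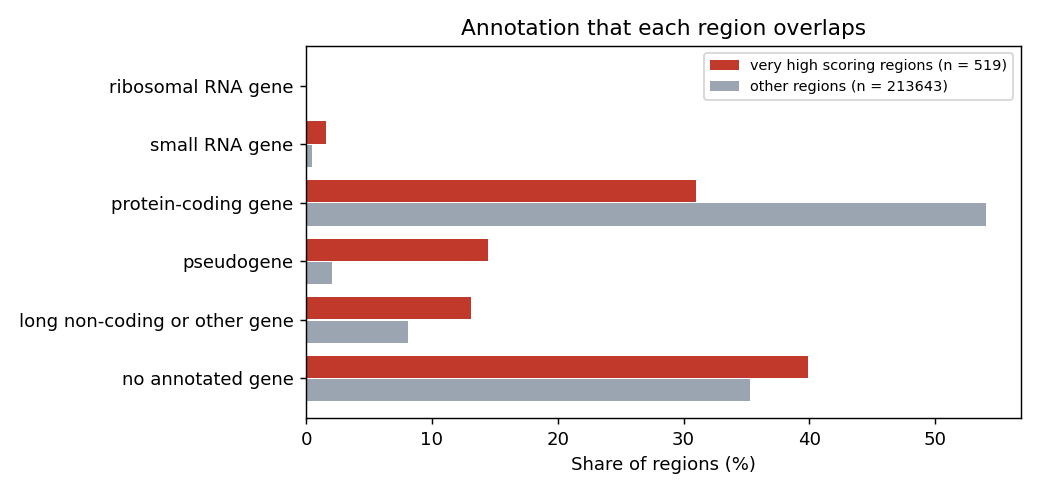
Share of regions (%) in each class of annotation for the 519 very high scoring regions and the 213643 other regions, each region counted once. Pseudogenes make up 14.5% of the first and 2.09% of the second, protein-coding genes 31.0% and 54.1%.

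The genes that the set reached were mostly unnamed. It overlapped 249 genes, of which 123 were protein-coding and 46 were pseudogenes. Of the 123, 70 (56.9%) had only a predicted or clone symbol (Gm, LOC or Rik), against 7.25% of the 20661 protein-coding genes on chromosomes 1 to 19 in the annotation.

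Promoter copies were counted in the same way for the whole list. RefSeq promoter windows of 300 bases, from 250 before to 50 after the start, lay in the set for 63 genes. For 19 of them (30.2%, 95% Wilson interval 20.2 to 42.4) the window was at least 95% identical to the window of another gene. In the other regions this held for 63 of 13093 genes (0.481%, interval 0.376 to 0.615). Copy number in these lines was not measured. The intervals cover counting error only, and genes of 1 family are not independent of each other. Those 19 genes lay on chromosomes 13 (7), 14 (5), 2 (5), 6 (1) and 8 (1), and had 1 to 5 copies each. Each of the 39 pairs of gene and copy lay on 1 chromosome. The copies belonged to 33 genes, of which 13 had their promoter in the set, 7 in another listed region and 13 in none. No match at all was found for 17 of the 63 promoters (27.0%), against 96.2% of the others. Promoters in the set were also less rich in CpG sites, with a median of 6 in 300 bases (quartiles 4 and 19.5, 75 windows) against 16 (quartiles 8 and 25, 15352 windows), and a median GC content of 53.7% against 58.3%.

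**Figure D3:**
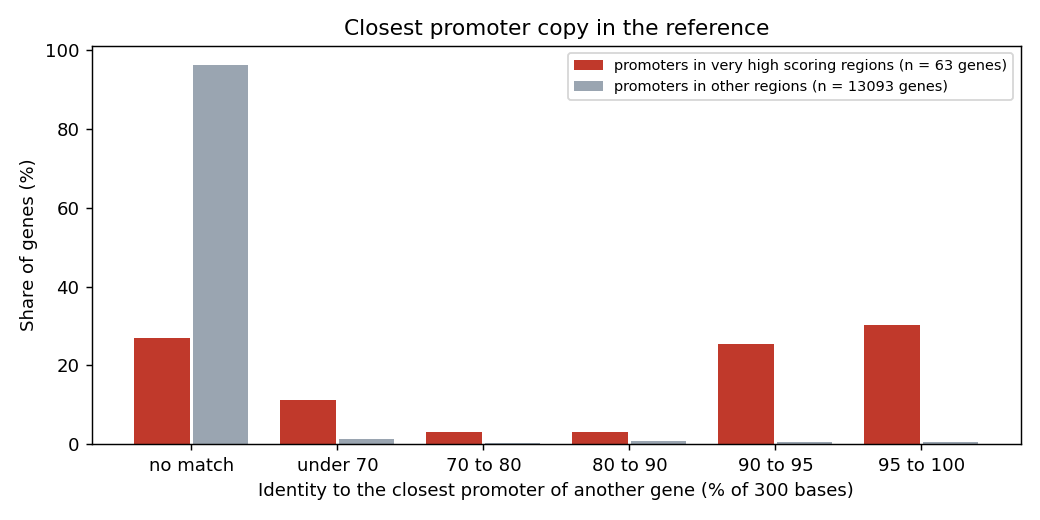
Share of genes (%) by the identity of their promoter window (300 bases) to the closest window of another gene, for 63 genes with a promoter in a very high scoring region and 13093 with a promoter in another listed region. Identities of 90 to 95% and 95 to 100% together hold 35 of the 63 genes, while 96.2% of the other genes had no match.

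No region of the set overlapped a ribosomal RNA gene, but some lay beside them. The 5S ribosomal RNA array of chromosome 8 has 48 annotated gene copies from 123538784 to 123622046, with a median spacing of 1698 bp. The list held 25 regions around it, and 3 of them were in the set. Their scores were 5672 (chr8:123541741-123542090), 8422 (chr8:123600451-123601520) and 15575 (chr8:123617241-123617860). Each lay in the spacer between copies, and the other 22 regions had a median of 607.5 and a highest value of 3113. The main precursor of ribosomal RNA gives the 18S, 5.8S and 28S species. A pseudogene related to its 18S part, Rn18s-rs5, lay within a single 5840 bp region of chromosome 17 (chr17:39842991-39848830). That region scored 44701, the tenth highest in the set, and also overlapped the lower end of the non-coding gene AY036118 (39848112 to 39898385). On chromosome 6, regions of the set lay to either side of Rn4.5s (chr6:47654921-47655094) without overlapping it. They scored 9002 (chr6:47649921-47651860, overlapping Gm40371) and 5810 (chr6:47679851-47680420, overlapping Gm40364). Only the first of them lay within 10000 bp of Rn4.5s.

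Small nucleolar RNAs guide the modification of other RNAs, and many of them are cut from the introns of the long non-coding gene Snhg14, part of the imprinted segment linked to Prader-Willi syndrome. Along Snhg14, 9 regions of the set scored 11620, 5193, 6207, 10591, 25930, 59127, 8232, 19495 and 6601, in order of position from 59726481 to 59897380 on chromosome 7. The highest, 59127, was 13090 bp wide and covered 5 snoRNA genes in a row (LOC115486763, Gm22851, Gm25074, Gm25157 and Gm22631). In all, 14 of the 206 snoRNA genes of the array overlapped the set and 49 overlapped any region, with Snord116l17 and Snord116l9 among the 14. The other 100 regions along the array had a median of 970 and a highest value of 4040. The high values therefore lay at some copies of the array and not along all of it. Of the other small RNA families, 1 of 391 tRNA genes (n-TGgcc13 on chromosome 1, in a region scoring 7118) overlapped the set. A second region in that tRNA cluster scored 5626. None of 931 snRNA and 1136 miRNA genes overlapped the set, but only 90 and 195 of them overlapped any listed region. Of the tRNA genes, 239 overlapped a listed region.

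The largest cluster lay on chromosome 8 from 19682071 to 20824460, where 83 of 305 listed regions (27.2%) were in the set. Their median score was 7630 and the highest was 40052 (chr8:20378171-20382650, a region that contains the pseudogene Gm7807). No gene was annotated at 37 of the 83, a pseudogene at 32 and a protein-coding gene at 11. The annotated genes include 4930467E23Rik, 2610005L07Rik and Gm15319, and the transcribed pseudogene 6820431F20Rik, which met a region scoring 22177. The regions of the cluster that were not in the set had a median of 1246, against 369.5 in the flanks of 1 Mb on each side.

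Speer genes encode glutamate-rich proteins of the male germ line. Their cluster on chromosome 5, from 14902491 to 15703850, had 47 of 105 regions (44.8%) in the set, with a median of 13770 and a highest value of 38628. The flanks had a median of 455. The pseudogene Speer8-ps1 met 5 regions of the set, the highest scoring 26206, and Speer4cos met 3, the highest scoring 27173. Speer4e was the only protein-coding Speer gene overlapped, at 6221. Speer4d, Speer4c and Speer4f1 had regions of the set within 10000 bp, with highest values of 11377, 17207 and 10200. No gene was annotated at 28 of the 47 regions, the highest among them included.

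Sfi1, which encodes a centrin-binding protein of the centrosome, met 16 regions of the set. From 3125181 to 3200310 on chromosome 11, 16 of 19 regions (84.2%) were in the set, all 16 overlapped Sfi1, and they covered 91.3% of that stretch. Their scores in order of position were 37878, 22536, 37100, 5957, 30226, 53196, 10253, 22328, 18163, 36390, 43253, 27446, 19453, 33113, 14923 and 18492. The region of 53196 was 15780 bp wide, the widest of the set. High values ran through the stretch and stopped before the next gene, Eif4enif1, which met none. The first of these regions also covered Pisd-ps1. Pisd encodes the mitochondrial enzyme that makes phosphatidylethanolamine from phosphatidylserine, and it and the pseudogenes Pisd-ps1 and Pisd-ps2 met the set on 3 chromosomes. Pisd itself, on chromosome 5, met a region of 22958 (chr5:32734791-32742660), beside 3 others of 6137, 12215 and 8241 in the neighbouring pseudogene Gm2420. Pisd-ps2, on chromosome 17, met regions of 9228 and 42791 (chr17:3078921-3084740). Other regions near Pisd had a median of 476, and those near Pisd-ps2 of 523.

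**Figure D4:**
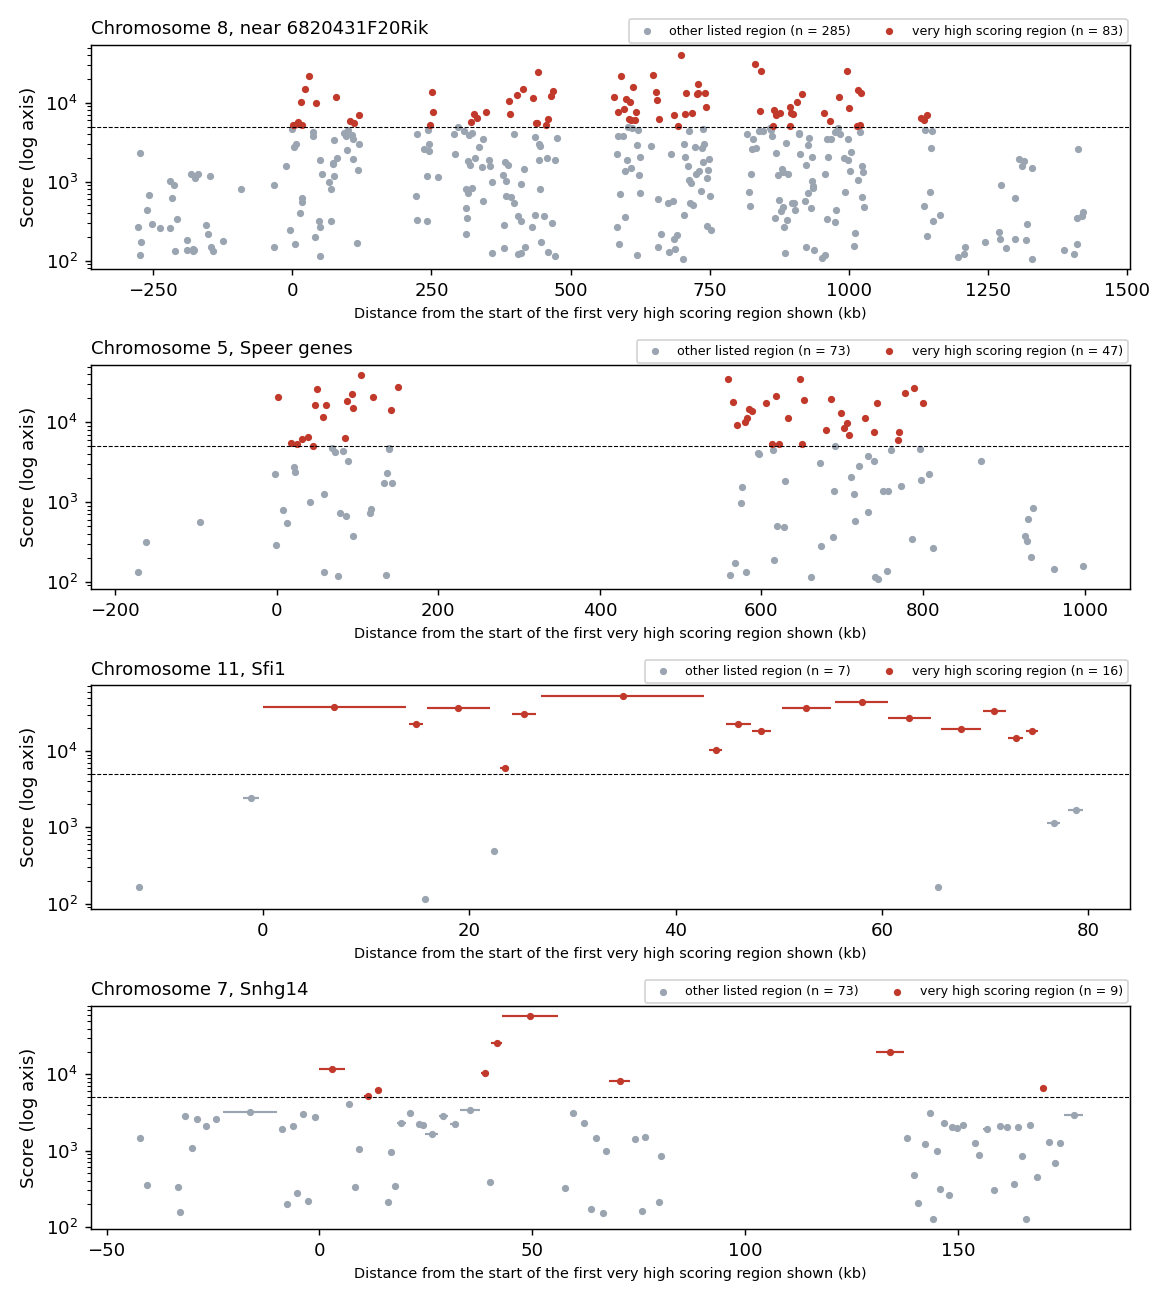
Scores (log axis) of all listed regions along 4 clusters, against distance in kb from the first very high scoring region shown; lines span each region, red marks the very high scoring ones and the dashed line is 5000. On chromosomes 8 and 5 the red points lie in separate blocks, over Sfi1 they follow each other almost without a gap up to 53196, and along Snhg14 they stand among regions of up to 4040.

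Chromosome 14 had a pair of clusters of predicted genes, the first of which includes 2610042L04Rik, also called takusan, the namesake of a family with a described role at synapses. In that cluster, from 3022301 to 8287210, 53 of 358 regions (14.8%) were in the set, with a median of 9258. It has 87 protein-coding genes, of which 77 have predicted or clone symbols, and 30 of the 53 regions overlapped a protein-coding gene. Gm3667 met the highest of those, at 31418 (chr14:6887901-6892190). The highest of all, 56488, was a 580 bp region in no gene (chr14:8286631-8287210), with Fam107a 9060 bp away. In the second cluster, from 41243471 to 43683900, 24 of 184 regions (13.04%) were in the set, with a median of 9318 and a highest value of 23047 in Gm8126. Outside both, Dgkh, a diacylglycerol kinase gene also on chromosome 14, met regions of 8547 and 7430, and another of 7481 lay 152 bp before its start.

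Many zinc finger proteins silence transposable elements, and 3 further clusters included genes with Zfp symbols. Whether the other genes there encode zinc finger proteins was not tested. On chromosome 13, from 65348081 to 66824830, 37 of 262 regions (14.1%) were in the set, with a median of 6312 and a highest value of 10347 at 2410141K09Rik. This cluster also carries vomeronasal receptor pseudogenes, of which Vmn2r-ps98 and Vmn2r-ps106 met regions of 5580 and 8166, and Zfp640 met one of 6921. On chromosome 2, from 177073411 to 178023520, 13 of 166 regions (7.83%) were in the set, with scores from 5426 to 9483, and Zfp972 and Zfp971 met regions of 5942 and 7281. On chromosome 12, from 17991871 to 21058150, 33 of 380 regions (8.68%) were in the set, with a median of 7775 and a highest value of 18461. The region before the start of Zfp996 scored 7775. Of 388 Zfp and Zkscan genes outside chromosome 4, 376 met a listed region and 3 met the set. Over all protein-coding genes of chromosomes 1 to 19, 123 of 20661 (0.595%) met it, so the count for genes with these symbols is near that share. Most genes of the 3 clusters carry Gm or other symbols and were not in that count, so it does not describe the clusters.

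Other families differed in how far their genes were reached. Major urinary proteins, made in the liver, bind pheromones, and their cluster on chromosome 4 from 60024061 to 62177830 held 14 regions of the set among 164. Of these, 12 lay between genes, the highest at 30541 (chr4:61566531-61567580). Mup-ps1 and Mup5 met the others, at 7386 and 5013, so 2 of 46 Mup genes were reached, while 9 met any listed region. The Sp100 family, proteins of nuclear bodies that respond to interferon, lies on chromosome 1 from 84991491 to 85648410, where 18 of 102 regions (17.6%) were in the set. Sp110 met regions of 7867 and 7422, the second of which also met Sp140, and the pseudogene Gm2619 met the highest, 26412. At the immunoglobulin heavy chain locus Igh on chromosome 12, 6 regions scored 6615, 5738, 7030, 10446, 9958 and 14920 in order of position. The first of them overlapped the variable segment Ighv5-9. None of 1420 Olfr genes met the set, but only 176 of them met any listed region. Of 623 Vmn genes, 65 met a listed region and 2, both pseudogenes, met the set. Most genes of both families thus could not have met it. The share of all protein-coding genes that met the set, listed or not, was 0.595%. None of 59 histone genes met the set either, with 55 in a listed region, but this list is too short for a count of 0 to differ from that share. The 40 Defa, 11 Skint and 8 Amy genes also had none in the set. Only 0, 4 and 1 of them met any listed region, so their absence from the set says little.

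Duxf3 encodes a double homeobox transcription factor of the early embryo and lies in a tandem repeat. On chromosome 10, 4 regions ran almost end to end from 58221261 to 58240880 and covered 96.5% of that stretch. They scored 42696 (LOC100504180), 32545 (Gm10807), 26868 (Duxf3 and Gm4981) and 40933 (Gm9919). Of the 10 regions in that neighbourhood, the other 6 scored from 131 to 1370, so the change at both edges was abrupt. On chromosome 8, from 55111651 to 55520900, 8 of 61 regions were in the set among predicted genes, with a highest value of 49338 at chr8:55514331-55515170, in no gene.

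The set overlapped 53 protein-coding genes whose symbol was not of the Gm, LOC or Rik kind. Of these, 10 belong to the families above (Sfi1, Pisd, Duxf3, Sp110, Sp140, Zfp971, Zfp972, Zfp640, Mup5 and Speer4e). Of the other 43 genes, 39 met 1 region and 4 met more. These 43 genes had a median of 12 listed regions, and the median score of the regions outside the set was 567.5 for the middle gene. The highest were at Tmem267, with 56241 (chr13:119595501-119603490) and 6978, and at Vps45, a gene of vesicle transport, with 49556 (chr3:96044281-96045240). The other regions in these genes had medians of 276.5 and 631. Akap9, a scaffold of the centrosome and Golgi, met 34483 in a 2820 bp region, with a median of 341 in the rest of the gene. Lars2, the mitochondrial leucyl-tRNA synthetase, met 28288 in the last part of the annotated interval (chr9:123461331-123462520), 155 bp from its end, against a median of 902.5. Sos2, an exchange factor for Ras, met 25741 over 510 bp, and its other regions had a median of 755.

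Further genes with 1 region of 10000 or more included Aida, at 17873 over 470 bp, and Cenpo, a kinetochore protein gene, at 16961. Drosha, the nuclease that starts microRNA processing, met 15873, Dlgap2, a postsynaptic scaffold gene, 15272, and Kctd16, an auxiliary subunit gene of GABA-B receptors, 14570. Prkca, protein kinase C alpha, had 65 listed regions and 1 in the set, at 13653. Zranb3, which remodels stalled replication forks, met 13125, and Cracd met 11818. Cmss1 and Filip1l shared a region of 10957, Commd10 met 10902, Maml2, a Notch coactivator gene, 10613, and Slc30a4, a zinc transporter gene, 10502. Auts2 had 97 regions and only 1 in the set, at 5281. In each of these genes the other regions had a median between 183 (Aida) and 1050 (Cenpo). In 6 of the 43 genes a region of the set met the 1000 bp to either side of the gene's own start or end. Eef2, translation elongation factor 2, and Dapk3 shared a region of 5673 between them. Of the 43 genes, Eef2 had the highest median of other regions, 3951, which came from its 1 other region. Abcg2, a drug efflux transporter gene, met 3 regions, of 5531, 5777 and 6267, and a region among them that was not in the set scored 4375. Isolated regions of the set, 126 in all, had a median width of 970 bp, against 1470 bp in loci of 3 or more. Their median score was 7211.5, against 8526, and the quartiles of their ratio to the other regions within 100000 bp were 11.2 and 25.8, against 7.65 and 21.3.

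The very top scores, given next, lay in no annotated gene, while the score that followed them, 59127, was in Snhg14. As a class, regions in no gene had a median of 7630. It was 8433 at protein-coding genes, 9022 at pseudogenes, 9926 at small RNA genes and 7394 at long non-coding or other genes. The region of 245853 was a 1610 bp stretch on chromosome 15 (chr15:75085471-75087080), with the pseudogene Gm5960 10451 bp away and a median of 344 over the other regions within 100000 bp. The next, 107977, was at chr13:3372691-3373860, 10401 bp from Gm16505. After it came 94553, at chr2:98666231-98667340, with a companion of 18246 at chr2:98661851-98662980. The nearest gene, Gm33780, was 35259 bp from the former. The 8 listed regions in that part of chromosome 2 included 6 others with a median of 321.5. Each of these stood more than 100 times above other regions of its own width, at ratios of 261, 126 and 111.

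Of the 207 regions in no gene, 113 were within 10000 bp of one and 4 were more than 50000 bp from any, with a median distance of 9060 bp. For 73 of them the nearest gene was a pseudogene, and for 71 it was protein-coding. Regions near the start of chromosomes, where the assembly begins next to the centromere, were more frequent in the set than in the rest of the list. In the first 4 Mb lay 42 of the 519 (8.09%), against 0.872% of the other regions. The Sfi1 cluster accounted for 16 and chromosome 14 for 6, and the other 20 were spread over chromosomes 4, 6, 9, 13, 16, 17, 18 and 19, of which 15 met no gene. On chromosome 9 they scored 7202, 5067 and 33817 within 3000241 to 3024670. On chromosome 18 they scored 6313, 29288 and 18047 within 3000001 to 3011310. Regions on chromosomes 16 (12991 and 6695) and 6 (9333, 11397 and 7228) lay within 50000 bp of a vomeronasal receptor pseudogene or a non-coding gene.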

How the data were processed

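Captured DNA of 8 lines was bisulfite sequenced. Per the submitters' processing notes, the tools included Novoalign 3.7.1 and Picard and the build was mm10. How regions were called is not stated in what was used here. The deposited list holds 1 score per region for all lines, whose calculation is likewise unknown. It was used to choose and rank regions within the list. Depth per line is unknown, 0 columns per line exist to compare, and the planned comparison of IDH groups was not run. The genotype of the mice is not reported here in full.

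Regions were set against RefSeq genes (GRCm38.p6) with Python 3.11.15, pandas 2.3.3 and SciPy 1.17.1. A shared base counted as an overlap. Promoters were matched with BLAST+ 2.17.0 (word size 16, at least 85% identity, e-value of at most 1e-20), and identity was taken over 300 bases. No genome or protein sequences were used here. Overlap counts and promoter matching were tested on simulated data.

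The set and the lists were chosen with earlier results of these data known. Named were the 25 highest regions with their genes, loci of 3 or more regions, up to 4 genes per class, the 3 regions on each side of the threshold, and listed multicopy families; further single genes were chosen after their values were seen.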

Additional observations from a re-analysis of the deposited data

How the results depend on the processing

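The set grew to 1587 regions at a score of 2500 or more and shrank to 196 at 10000 or more, so its size is a matter of the threshold. The number of loci was 359 with gaps of up to 10000 bp, 125 with gaps of up to 1000000 bp, and 86 at a score of 10000 or more. Another region of the set lay within 10000 bp for 43.2% and within 1000000 bp for 84.0%. With genes within 10000 bp counted, the shares became 0.771% for ribosomal RNA, 3.08% for small RNA, 48.6% for protein-coding genes, 20.2% for pseudogenes, 9.25% for long non-coding or other genes and 18.1% for no gene. With the midpoint of the region required in the gene, small RNA genes fell to 0% and regions in no gene rose to 46.8%. The pseudogene share was 11.03% at a score of 2500 or more. The gene end share was 17.5% with a window of 2000 bp and 10.0% by midpoint. At 90% identity, 35 genes had a promoter copy, against 1.11% of the 13093 among the other regions. The median width was 1680 bp at a score of 10000 or more and 930 bp at 2500 or more. No paired analysis was possible because the list holds no value per line, and for the same reason no line could be left out.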

Other observations

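Chromosome X was outside the set. It held 19 regions of 5000 or more among 6135 (0.310%), and chromosome Y held 0 among 87, with a highest score of 2691. The highest on X, 59545, was a 590 bp region (chrX:112370681-112371270) in Apool, a gene of the mitochondrial inner membrane. From 24169701 to 26857470 lay 7 regions that met no gene, all between 810 and 990 bp wide and with scores from 5731 to 6487. Another 3, from 35517421 to 35686990, were 950 to 1000 bp wide and scored 6808 to 7033. Mid1, a gene that spans the pseudoautosomal boundary in mice, met a region of 6858 (chrX:169980731-169985400), and regions of 10530 and 7553 followed it.

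In the segment of chromosome 4 that was left out, 87 of 510 regions scored 5000 or more, from 145406401 to 147810710. Their median score was 10733 with a highest value of 32430, and their median width was 1400 bp, against 1280 bp in the 519 regions described.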
